A study of Mus musculus with 6 samples.

Results

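Ventricular gene expression was compared between mice that expressed an active form of ATF6β in the heart and mice that carried the driver transgene alone. The comparison rested on 4 of the 6 arrays of the series, 2 ATF6β-cn and 2 control, each from its own mouse, and took in all 22206 transcript clusters (the platform's unit for a gene) that are not control probe sets. Control mice carried αMHC-tTA, in which the α-myosin heavy chain promoter directs a tetracycline-repressed activator to cardiac myocytes. ATF6β-cn mice carried αMHC-tTA together with a tetracycline operator-dependent transgene for the N-terminus of mouse ATF6β fused to a Myc tag. ATF6α-cn mice, with the same driver and the N-terminus of ATF6α fused to a FLAG tag, gave the other 2 arrays, whose values are set beside those of ATF6β-cn. The mice were 8 weeks old and had been without doxycycline (DOX), which holds the transgene silent, for 4 weeks. The transgene is driven in myocytes only while the RNA came from whole ventricles, and the number of ATF6β-cn founders was not stated.

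ATF6α and ATF6β are membrane proteins of the endoplasmic reticulum (ER). Both are stored as inactive precursors. ER stress sets free their cytosolic part, a bZIP transcription factor, whose known targets include ER chaperones and the machinery of ER-associated degradation (ERAD). This free form binds the ER stress response element (ERSE), in which a CCAAT box bound by NF-Y is followed after a fixed spacer by CCACG. In the heart the same myocytes also carry a dense mitochondrial network, ion channels that shape each action potential and a large contractile apparatus, whose genes are not classical ER stress targets.

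All values are log2 signals, so that a difference of 1 is a 2-fold change. The medians of the 6 arrays lay between 5.58 and 5.64, and arrays of the same group correlated at 0.990 to 0.991. Background was set at a log2 signal of 5.03, below which 95% of 1410 genes for olfactory or vomeronasal receptors lay. Negative control probe sets had a median of 5.08 and 5.02 on the control arrays and 5.45 and 5.44 on the ATF6β-cn arrays, and the part of this shift in changes of dim genes was not tested. The median log2 fold change of the receptor genes was −0.00312 and the one of all clusters −0.02. All 12 cardiomyocyte markers read far above background on every array, with a mean of 17.8 on each control array and of 17.7 and 17.6 on the ATF6β-cn arrays, and none was called changed. None of the 13 marker lists of cell types or tissues held a called gene. Macrophage and leukocyte markers averaged 7.49 on both control arrays, 7.52 on ATF6β-cn replicate 1 and 8.17 on replicate 2, and fibroblast and matrix markers 10.4 and 10.5 on control, 10.4 on ATF6β-cn replicate 1 and 11 on replicate 2. The part of these shifts in the results was not tested, and in whole ventricles fewer cells of a type and less RNA per cell cannot be told apart.

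Atf6b itself read 8.72 and 8.63 on the control arrays and 14.80 and 14.81 on the ATF6β-cn arrays. Both transgenic arrays stood far above both controls, with a log2 fold change of 6.12 (standard error 0.24, limma adjusted p = 4.70e-05). Atf6, which encodes ATF6α, read 13.09 and 13.04 on control and 12.25 and 11.94 on ATF6β-cn. It was lower on both ATF6β-cn arrays, but the log2 fold change of −0.97 did not pass the test (limma adjusted p = 0.110).

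Against control, 68 clusters fell and 176 rose in ATF6β-cn ventricles (limma, adjusted p under 0.05), 0.306% and 0.793% of the 22206. Every called change was at least 2-fold. All 176 rises and all 68 falls also had both ATF6β-cn arrays on the same side of both control arrays. This separation holds for every call and is no further support for a gene named below. Over all clusters 23.3% lay below both controls and 21.1% above. The falls ran from 2.22-fold to 5.46-fold with a median log2 fold change of −1.50, and 5 of the 68 exceeded 4-fold. The rises ran from a log2 fold change of 1.14 to 6.97 with a median of 1.75, and 65 of the 176 reached 4-fold. The falls all began from a control mean above background, while 17 of the rises began below it on both control arrays. By fold alone 287 clusters were at least 2-fold lower (1.29%) and 444 at least 2-fold higher (2.0%).

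The individual fall calls depended on all 4 arrays. Without control replicate 1 there were 4 falls by limma, without control replicate 2 there were 5, without ATF6β-cn replicate 1 there were 5, and without ATF6β-cn replicate 2 there were 0 (1079 lower at an unadjusted p under 0.05). In the same order the rises numbered 69, 45, 41 and 41. Leaving out an ATF6α-cn array removes none of the 4 compared arrays, and every fall then had the same adjusted p as in a fit of those 4 alone. Such a fit is therefore no further test of a fall. No fall kept its call whichever of the 4 compared arrays was left out, and of the rises only a minority did. The values on the single arrays are therefore given beside each fall.

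**Figure D1:**
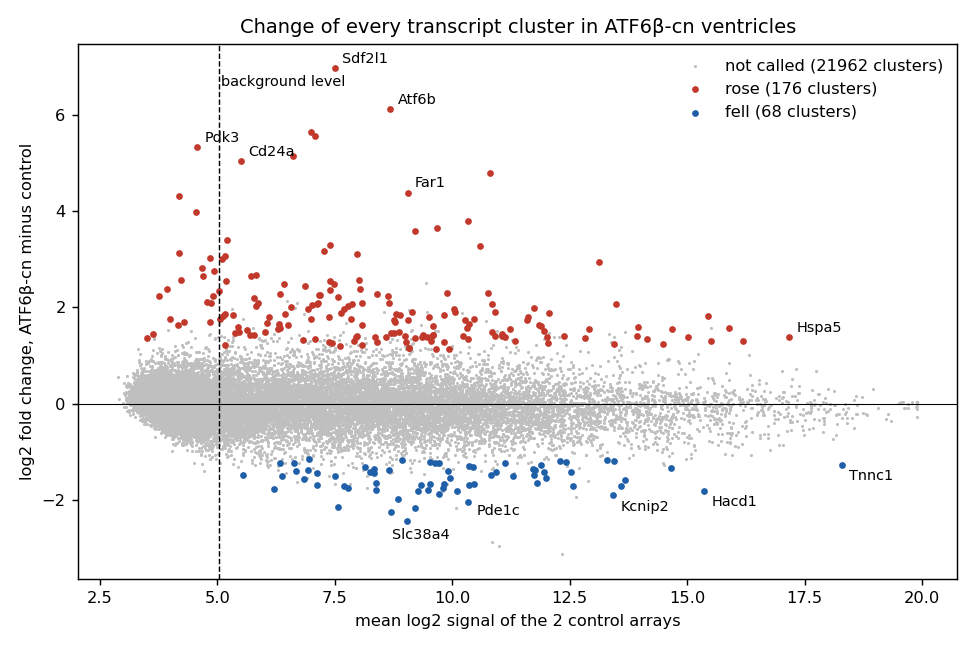
Log2 fold change of each of the 22206 transcript clusters in ATF6β-cn ventricles against control (vertical axis) by the mean log2 signal of the 2 control arrays (horizontal axis), with the 176 clusters that rose in red, the 68 that fell in blue and the background level of 5.03 as a dashed line. The rises reach 6.97 and include clusters that start below background, whereas the falls stay between −1.15 and −2.45 and all start above it.

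Of the 68 falls, 9 were placed with proteins of electrical activity, calcium signalling and contraction. The roles were assigned after the values were seen, with no count over all clusters to set this against, and no such group was tested. The same holds for the other groups of falls named below. Kcnip2, which encodes KChIP2, the partner subunit of the Kv4 channels that carry the transient outward potassium current, read 13.36 and 13.48 on the control arrays and 11.45 and 11.60 on the ATF6β-cn arrays. Both transgenic arrays lay well below both controls, with 26.9% of the control level left (log2 fold change −1.89, standard error 0.22, limma adjusted p = 0.00741). Kcnip2 was the only 1 of 32 repolarizing potassium channel genes and partners to pass. The Kv4 genes themselves, Kcnd2 and Kcnd3, had log2 fold changes of 0.63 and −0.32, and Kcnq1, the slow delayed rectifier, one of −1.43 that did not pass (limma adjusted p = 0.0974).

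Hcn2, a pacemaker channel subunit, read 7.56 and 7.81 on control and 5.70 and 6.25 on ATF6β-cn, 30.4% of the control level (limma adjusted p = 0.0195). Its relative Hcn4, the main subunit of the sinus node, had a log2 fold change of −1.23 that did not pass. Rangrf, which encodes MOG1, a protein that binds the GTPase Ran, read 9.62 and 8.79 on control and 7.19 and 6.86 on ATF6β-cn. The control arrays differed from each other, yet both stood above both transgenic arrays (log2 fold change −2.18, standard error 0.30, limma adjusted p = 0.0155). Gja5, which encodes connexin 40, a gap junction protein of the atria and conduction system, rose by 1.82.

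Pde1c, a calcium- and calmodulin-activated phosphodiesterase that breaks down cAMP and cGMP, read 10.23 and 10.44 on control and 8.53 and 8.04 on ATF6β-cn, so that 24.1% of the control level was left (limma adjusted p = 0.00979). It was the only 1 of 20 phosphodiesterase genes to pass. Rgs6, which shortens muscarinic Gi signalling, read 10.09 and 9.53 on control and 7.94 and 8.34 on ATF6β-cn (log2 fold change −1.67, limma adjusted p = 0.0338). Rasl10b, a small GTPase linked to atrial natriuretic peptide secretion, fell by 1.82 on the log2 scale.

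Tnnc1, which encodes cardiac troponin C, the calcium switch of the thin filament, read 18.32 and 18.27 on control and 16.81 and 17.21 on ATF6β-cn, 41.1% of the control level (limma adjusted p = 0.0421). For the other cardiac troponin subunits, Tnnt2 and Tnni3, the log2 fold changes were 0.03 and 0.02. Of 49 sarcomere and Z-disc genes Tnnc1 was the only one called, the list median was −0.04, and Myh6, whose promoter drives the transgenes, had a log2 fold change of 0.00. Tmod4, a tropomodulin that caps thin filaments, fell by 1.41, and Hspb3, a small heat shock protein of muscle, by 1.44. By limma 0 of 29 genes of sarcoplasmic reticulum calcium handling were called (2 lower and 5 higher at an unadjusted p under 0.05), and Atp2a2, Pln and Ryr2 had log2 fold changes of 0.03, 0.03 and −0.07.

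**Figure D2:**
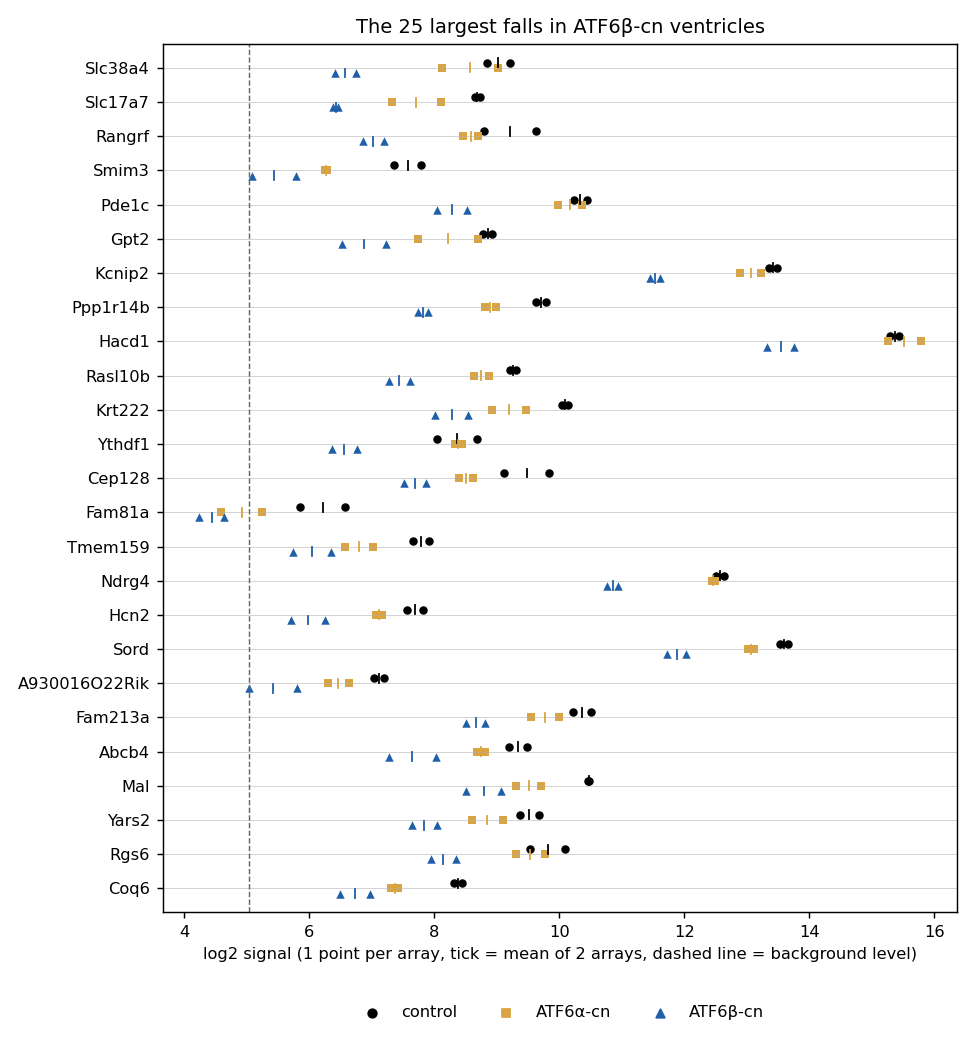
Log2 signal on each array for the 25 called genes with the largest fall in ATF6β-cn ventricles, with control arrays as black circles, ATF6α-cn arrays as yellow squares, ATF6β-cn arrays as blue triangles and the mean of each group as a tick. Both triangles lie left of both circles in every row, as the choice of these genes required. The rows run from Slc38a4 (log2 fold change −2.45) to Coq6 (−1.64), and only Fam81a ends below the background level of 5.03 on both ATF6β-cn arrays.

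The largest fall of all belonged to Slc38a4, a sodium-coupled transporter of neutral amino acids. It read 9.21 and 8.84 on control and 6.74 and 6.41 on ATF6β-cn, so that 18.3% of the control level was left (log2 fold change −2.45, standard error 0.32, limma adjusted p = 0.0121). Slc17a7, a phosphate transporter of the family that loads glutamate into vesicles, read 8.65 and 8.72 on control and 6.38 and 6.46 on ATF6β-cn (log2 fold change −2.26, limma adjusted p = 0.00895). The arrays of a group lay closer together for Slc17a7 than for Slc38a4. The other 3 transporters among the falls were Abcb4, which exports phosphatidylcholine in liver, at −1.69, Slc44a2, a choline transporter, at −1.49, and Slc16a7, the monocarboxylate carrier MCT2, at −1.42.

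Enzymes of lipid, polyol and glycerol metabolism fell as well. Hacd1, a muscle 3-hydroxyacyl-CoA dehydratase of very long fatty acid elongation, read 15.44 and 15.29 on control and 13.33 and 13.76 on ATF6β-cn (log2 fold change −1.82, limma adjusted p = 0.0195). Sord, sorbitol dehydrogenase of the polyol pathway, read 13.66 and 13.53 on control and 12.03 and 11.73 on ATF6β-cn (log2 fold change −1.71, limma adjusted p = 0.0109). Of the control level 28.3% and 30.5% was left. Tmem159, a lipid droplet assembly factor, fell by 1.75 and Gpd1, the cytosolic glycerol-3-phosphate dehydrogenase, by 1.20.

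Of the 68 falls 13 were placed with mitochondrial proteins after their values were seen, with no count over all clusters to set this against, and their log2 fold changes ran from −1.21 to −1.98. Gpt2, the mitochondrial alanine transaminase, read 8.92 and 8.78 on control and 7.22 and 6.52 on ATF6β-cn (limma adjusted p = 0.0401). Yars2, the mitochondrial tyrosyl-tRNA synthetase, read 9.67 and 9.36 on control and 8.04 and 7.64 on ATF6β-cn (limma adjusted p = 0.0253). Coq6, a monooxygenase of coenzyme Q synthesis, read 8.31 and 8.44 on control and 6.97 and 6.49 on ATF6β-cn (limma adjusted p = 0.0194). In the same order, the log2 fold changes of these genes were −1.98, −1.68 and −1.64.

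The other mitochondrial falls were of genes for RNA handling, import and metabolism. Lrpprc, which stabilizes mitochondrial mRNAs, fell by 1.27, Mrps35, a protein of the small mitochondrial ribosomal subunit, by 1.23, and Osgepl1, which modifies mitochondrial tRNA, by 1.33. Timm44, which tethers the import motor to the inner membrane, fell by 1.48 and Dnaja3, a mitochondrial HSP40, by 1.42. Among the enzymes, Hibch of valine breakdown fell by 1.55, Suox, sulfite oxidase, by 1.37, Pdhx, the E3-binding protein of the pyruvate dehydrogenase complex, by 1.24, and Ppa2, the mitochondrial pyrophosphatase, by 1.21. Tcaim, an immune-modulating mitochondrial protein, fell by 1.32.

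Lists of mitochondrial genes had negative medians with at most 1 called member each. Of 37 genes of respiratory complex I, 0 were called by limma (12 lower and 2 higher at an unadjusted p under 0.05), and 31 were lower on both ATF6β-cn arrays than on both control arrays and 2 were higher, with a median log2 fold change of −0.43 against −0.02 for all clusters. Over all clusters 23.3% lay below both controls and 21.1% above, and among clusters with a mean control signal of at least 12, 43.4% lay below and 25.2% above. Among those with a mean control signal from 9 to under 12, the range in which the mitochondrial ribosomal proteins and the proteasome have their median, 34.6% lay below and 23.9% above. Ndufv2, a complex I subunit, had the lowest value of the list at −0.97 (limma adjusted p = 0.121). Of 42 genes of complexes II to V, 32 lay below both controls (median −0.22, 0 called by limma, with 9 lower when p was not adjusted), among them Sdha at −0.91. Of 75 mitochondrial ribosomal protein genes, 50 lay below and 5 above (median −0.42, Mrps35 alone called), and of 39 genes of the tricarboxylic acid cycle and branched-chain amino acid breakdown, 28 below and 5 above (median −0.38, Hibch alone called). The same medians in ATF6α-cn, against the same control arrays, were −0.21, −0.14, −0.34 and −0.31.

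Of 42 genes of fatty acid uptake and oxidation, 24 lay below both controls and 12 above with 0 called by limma (10 lower when p was not adjusted) and a median of −0.19, and Hadh, a β-oxidation dehydrogenase, had a log2 fold change of −0.90 (limma adjusted p = 0.122). Of 40 genes of glucose uptake, glycolysis and glycogen, 21 lay below and 7 above with a median of −0.27. The only member called rose: Pdk3, a kinase that inhibits pyruvate dehydrogenase, read 4.49 and 4.66 on control, below background, and 9.72 and 10.09 on ATF6β-cn, a rise of at least 29.3-fold when counted from the background level. Ckm, the muscle creatine kinase, had a log2 fold change of −1.02 that did not pass (limma adjusted p = 0.0708). In ATF6α-cn, against the same control arrays, the medians of the fatty acid and glucose lists were −0.30 and −0.16.

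Genes of protein quality control outside the ER had negative medians, and those inside it positive ones. Of 43 proteasome genes, 30 lay below both control arrays and 0 above, with a median of −0.36 and 0 called by limma (17 lower when p was not adjusted). Psmc5, an ATPase of the regulatory particle, had the lowest value at −1.21 (limma adjusted p = 0.211). Of 34 cytosolic and mitochondrial chaperone genes, 23 lay below and 2 above (median −0.35), and the 2 called, Hspb3 and Dnaja3, both fell. Of 26 ER chaperones and cochaperones, 11 rose and 0 fell, with a median of 1.09. The medians of the complex I, mitochondrial ribosome and proteasome lists stayed between −0.37 and −0.44, −0.37 and −0.50, and −0.32 and −0.45 over the other scalings, the replicate block and each array left out. Cytosolic ribosomal protein genes, 69 in number, had a median of 0.08, with 25 above and 9 below both controls and 0 called by limma (1 lower and 3 higher when p was not adjusted). In ATF6α-cn, against the same control arrays, the medians were −0.29 for the proteasome and −0.22 for cytosolic and mitochondrial chaperones. They were 0.55 for ER chaperones and −0.15 for cytosolic ribosomal proteins.

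**Figure D3:**
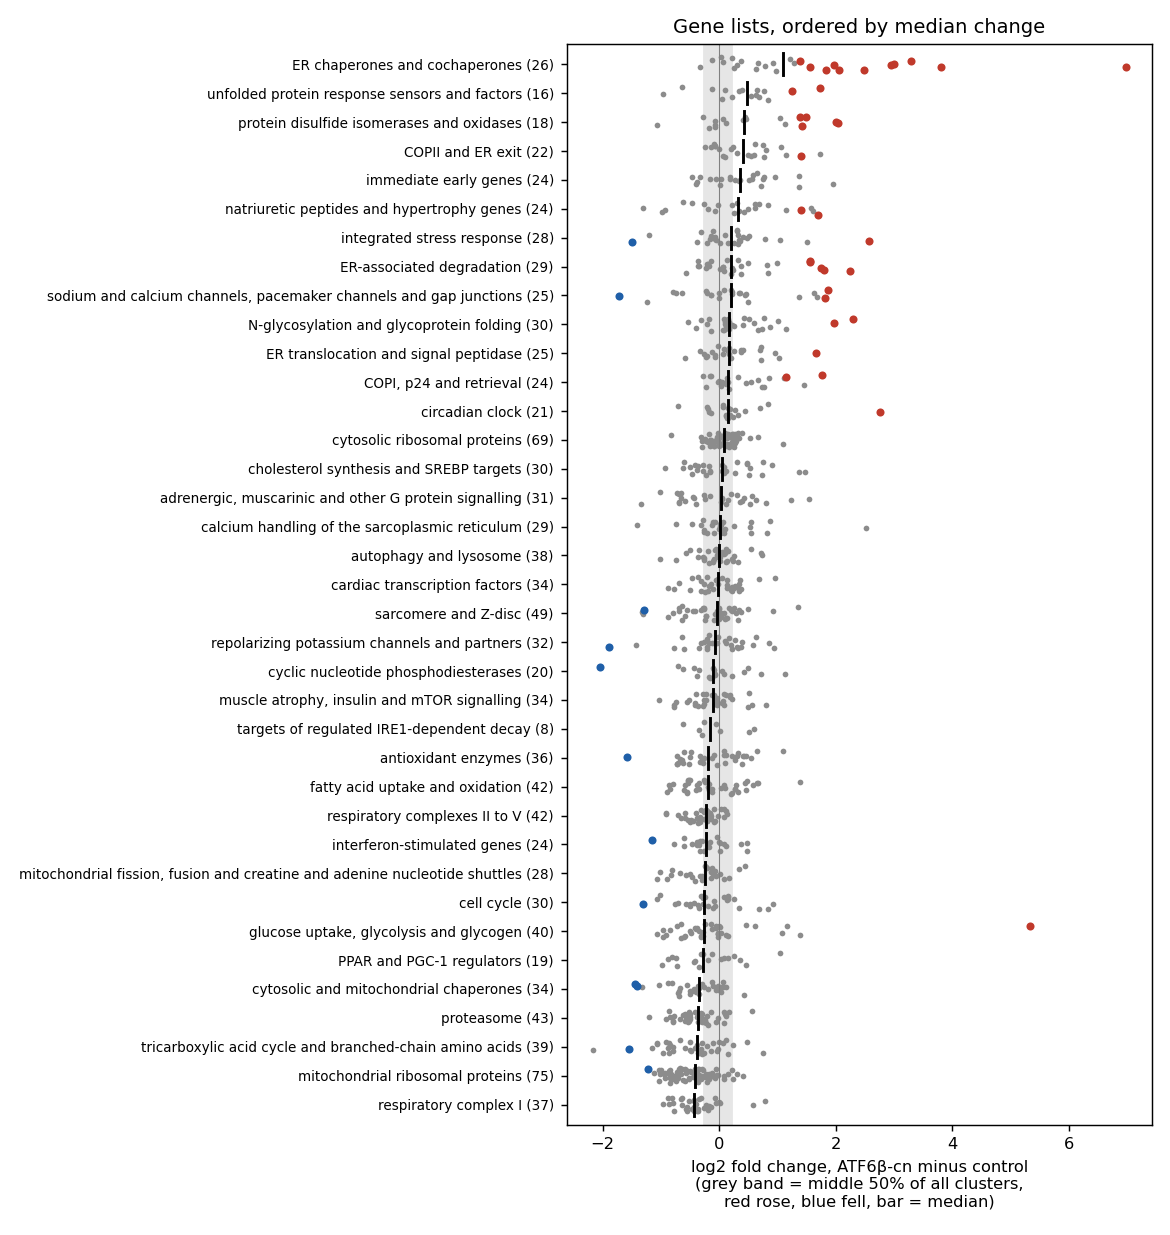
Log2 fold change in ATF6β-cn ventricles against control (horizontal axis) for every measured gene of the gene lists, ordered by list median (black bar), with the number of genes in brackets, rises in red, falls in blue and the interquartile range of all clusters as a grey band. ER chaperones head the order at a median of 1.09. The proteasome (−0.36), tricarboxylic acid cycle and branched-chain amino acids (−0.38), mitochondrial ribosomal proteins (−0.42) and respiratory complex I (−0.43) stand at its foot. Each of these holds at most 1 called gene.

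Thiol and detoxification enzymes accounted for 5 of the falls. Mgst1, a membrane-bound glutathione transferase, read 13.65 and 13.71 on control and 12.05 and 12.15 on ATF6β-cn (log2 fold change −1.58, limma adjusted p = 0.0229). Glrx, glutaredoxin, read 11.93 and 12.04 on control and 10.52 and 10.38 on ATF6β-cn (log2 fold change −1.54, limma adjusted p = 0.0147). The arrays of a group lay close together for both genes. Fam213a, a peroxiredoxin-like protein, fell by 1.70, Gsto1, an omega-class glutathione transferase, by 1.43, and Cth, which makes cysteine and hydrogen sulfide, by 1.50. The list of 36 antioxidant enzymes, which holds Mgst1 alone of these as a called member, had a median of −0.19 (−0.23 in ATF6α-cn). Cth is also on the list of the integrated stress response, whose other called member, Phgdh, the first enzyme of serine synthesis, rose at least 3.37-fold, counted from background, since both control arrays lay below it.

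Other falls were of genes for growth signalling and the cell surface. Ndrg4, which in zebrafish supports cardiomyocyte proliferation, read 12.64 and 12.51 on control and 10.77 and 10.93 on ATF6β-cn (log2 fold change −1.72, standard error 0.21, limma adjusted p = 0.00885). Ccnd2, cyclin D2, fell by 1.31, and a cluster that matches both Ccnd1, cyclin D1, and Mir3962 fell by 1.42. In the list of 30 cell cycle genes Ccnd2 was the only call, and Mki67 had a log2 fold change of −1.06 (limma adjusted p = 0.329). The receptor tyrosine kinase Kit fell by 1.39, Socs2, a brake on growth hormone signalling, by 1.35, and Mapk4, an atypical MAP kinase, by at least 1.43-fold, since both ATF6β-cn arrays were under background. At the cell surface, Itga9, an integrin subunit, fell by 1.64, Tfpi, the inhibitor of tissue factor, by 1.37, F11r, a junctional adhesion molecule, by 1.25, Tspan7, a tetraspanin, by 1.19, and Gpc1, a glypican, by 1.18.

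Of the remaining named falls, Ppp1r14b, an inhibitor of protein phosphatase 1, read 9.63 and 9.78 on control and 7.89 and 7.74 on ATF6β-cn (log2 fold change −1.89, limma adjusted p = 0.00632). Smim3, a small membrane protein, read 7.36 and 7.79 on control and 5.78 and 5.08 on ATF6β-cn (log2 fold change −2.14). Ythdf1, a reader of methylated adenosine in mRNA, read 8.68 and 8.05 on control and 6.36 and 6.76 on ATF6β-cn (log2 fold change −1.81). Smim3 came close to background on replicate 2 of ATF6β-cn, and the other pair stayed above it. Krt222, Cep128, the transcript A930016O22Rik and Mal fell by 1.82, 1.79, 1.70 and 1.68, and Fam81a by at least 2.26-fold, with both ATF6β-cn arrays below background. Ifit1 was the only 1 of 24 interferon-stimulated genes called, and fell by 1.15.

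Several large differences did not pass, and they were picked out here with their values known. Kansl1l read 12.38 and 12.30 on control but 10.87 and 7.53 on ATF6β-cn (log2 fold change −3.14, standard error 0.84, limma adjusted p = 0.144). Ogdhl, a relative of the 2-oxoglutarate dehydrogenase E1 subunit, read 10.85 and 11.12 on control and 9.11 and 6.94 on ATF6β-cn (log2 fold change −2.96, limma adjusted p = 0.0536). Replicate 2 was the lower array for both. Mest, an imprinted gene, read 10.47 and 11.23 on control and 8.74 and 7.19 on ATF6β-cn (log2 fold change −2.88, limma adjusted p = 0.0849). Bves, a cAMP-binding Popeye protein of the myocyte membrane, was tight on both sides at 12.83 and 12.96 against 11.24 and 11.34, and with a log2 fold change of −1.60 missed narrowly (limma adjusted p = 0.0503). Agtr1a, the angiotensin II receptor, missed as narrowly at −1.34 (limma adjusted p = 0.0503).

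ATF6α-cn and ATF6β-cn hearts share the same control arrays, so only their direct difference is tested here. The authors state that the 2 transgenes were expressed at unequal levels, so that the factors themselves could not be compared directly. A difference between the lines can thus not be told apart from one of transgene level. This limit holds for every direct difference given here. Set against ATF6α-cn in the fit of all 6 arrays, 11 clusters were lower in ATF6β-cn (0.0495%), and 6 of the 68 falls were among them. Itga9 differed by −2.10 (limma adjusted p = 0.0437), Hacd1 by −1.98 (limma adjusted p = 0.0327) and Pde1c by −1.89 (limma adjusted p = 0.0348). Ythdf1 differed by −1.83 (limma adjusted p = 0.0459), Ndrg4 by −1.61 (limma adjusted p = 0.0301) and Kcnip2 by −1.53 (limma adjusted p = 0.0438). On the ATF6α-cn arrays Hacd1 read 15.25 and 15.79, Pde1c 9.98 and 10.37, and Ndrg4 12.44 and 12.49, near the control arrays. For the other 62 falls the direct difference did not pass. The 68 were chosen for low values on ATF6β-cn arrays, which also enter the direct difference. Of the 68, 64 were also lower than control in ATF6α-cn, with a median log2 fold change of −0.62 and 0 called there. Over all clusters, 15483 of 22206 changed in the same direction in both lines, which share their control arrays. Cth lay as low in ATF6α-cn (6.06 and 5.39) as in ATF6β-cn (6.12 and 5.89).

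Of 160 genes with a cluster of their own that rose, 30 stood on the ER lists and 130 did not. The ER lists hold 224 of all 21154 genes with a cluster of their own. Of the 20 largest rises only Sdf2l1, Hyou1 and Fkbp7 stood on the ER lists. These counts leave out clusters that match several genes, and a pair of those with ER genes had rises of the same size: the cluster of Manf, an ER-resident secreted protein, and Rbm15b (log2 fold change 4.80), and the cluster of Pdia4, a disulfide isomerase, and Mir704 (3.65). Sdf2l1, an ER protein that works with BiP, had the largest rise of all and read 7.35 and 7.64 on control and 14.66 and 14.27 on ATF6β-cn (log2 fold change 6.97, limma adjusted p = 5.52e-05). Hyou1, an ER chaperone of the HSP110 family, rose by 3.80, and Fkbp7, an ER prolyl isomerase, by 3.28. Hsbp1l1, a relative of heat shock factor binding protein 1, read 7.29 and 6.69 on control and 12.78 and 12.52 on ATF6β-cn (log2 fold change 5.66, limma adjusted p = 8.82e-05). Dnaic1, a dynein chain of motile cilia, read 7.19 and 6.95 on control and 13.01 and 12.25 on ATF6β-cn (log2 fold change 5.56, limma adjusted p = 7.95e-05). All ATF6β-cn arrays stood far above control, at 50.4-fold and 47.0-fold.

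Neuronal and signalling genes that were dim in control hearts also appeared among the largest rises. Pak3, a p21-activated kinase of neurons, read 4.17 and 4.19 on control, below background, and 8.43 and 8.55 on ATF6β-cn. The groups did not overlap for Pak3, as for every called gene. Also from below background rose Pcp4, a calmodulin-binding peptide of Purkinje cells, at least 11.3-fold, Syt17, a synaptotagmin, at least 7.06-fold, and Kcnj13, the inward rectifier Kir7.1, at least 4.91-fold. None of the 11 Schwann cell and neuronal markers was called, and their mean lay between 4.91 and 5.20 on the 4 arrays. Cd24a, a small surface glycoprotein, read 5.69 and 5.33 on control and 10.37 and 10.73 on ATF6β-cn (log2 fold change 5.04).

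Lipid and metabolic enzymes formed another part of the rises. Lipa, the lysosomal acid lipase, read 8.95 and 9.47 on control and 12.69 and 12.91 on ATF6β-cn (log2 fold change 3.59, limma adjusted p = 0.00111). Isyna1, which makes inositol phosphate from glucose 6-phosphate, read 7.14 and 7.67 on control and 10.74 and 10.66 on ATF6β-cn (log2 fold change 3.30, limma adjusted p = 7.00e-04). Far1, which makes fatty alcohols for ether lipids, rose by 4.39. For none of these did the groups overlap, as for every called gene. Chosen after their values were seen, both biliverdin reductases rose, Blvra by 2.23 and Blvrb by 2.54, as did Oat, ornithine aminotransferase, by 2.07, Nans of sialic acid synthesis by 2.26, and Gmds of GDP-fucose synthesis by 2.08. All 3 clusters of Pemt, which methylates phosphatidylethanolamine, rose, by 1.49 to 1.59.

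The remaining named rises were the uncharacterized transcript B230217C12Rik (log2 fold change 5.15), Hn1l (3.17), Nde1, a dynein partner (3.11), and Cgref1, a secreted calcium-binding growth regulator (3.07). Heart genes that rose included Fhl1, a LIM protein of the sarcomere that increases in hypertrophy, by 1.41, and Nmrk2, a nicotinamide riboside kinase of muscle, by at least 1.93-fold. In the list of 24 natriuretic peptide and hypertrophy genes these were the only 2 calls. Nppa read 15.52 and 15.51 on control and 16.91 and 17.25 on ATF6β-cn, higher on both arrays, but its log2 fold change of 1.57 did not pass (limma adjusted p = 0.160).

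**Figure D4:**
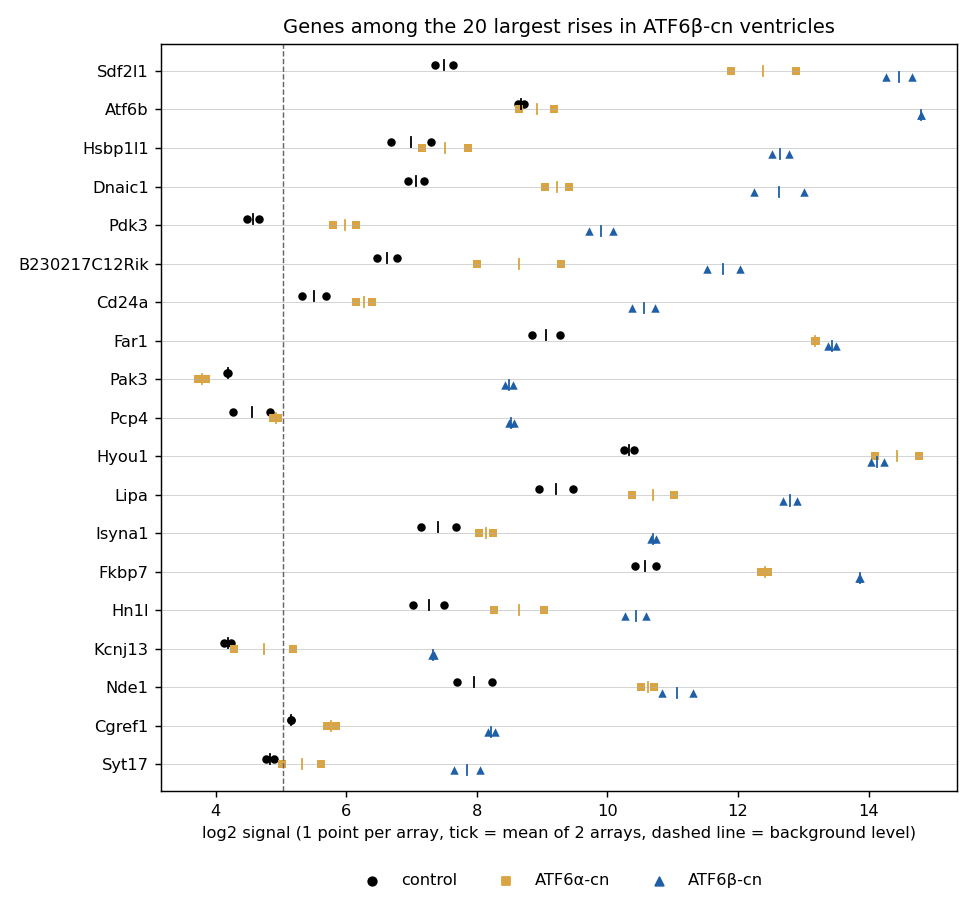
Log2 signal on each array for called genes among the 20 with the largest rise in ATF6β-cn ventricles, with control arrays as black circles, ATF6α-cn arrays as yellow squares, ATF6β-cn arrays as blue triangles and the mean of each group as a tick. Pdk3, Pak3, Pcp4, Kcnj13 and Syt17 start below the background level of 5.03 on both control arrays, and in rows such as Pak3, Pcp4 and Hsbp1l1 the ATF6α-cn arrays lie near control while in Far1, Hyou1 and Nde1 they lie near ATF6β-cn.

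The promoters of called genes were searched on both strands for the ERSE, spelled CCAAT, 9 bases of any kind and CCACG, in RefSeq windows from 250 bases before to 50 after each start site. A window was found for 118 of the 160 risen genes and 51 of the 66 fallen genes with a cluster of their own. The ERSE stood in 8 of the 118 (6.78%), in 0 of the 51 and in 37 of 27025 genes of the whole table (0.137%). The 8 promoters are shown because they carry the element that the ATF6 factors are known to bind. Each stretch is written 5′ to 3′ along its gene with the element in capitals, and Calr, Creld2 and Derl3 carry it in the reverse orientation. Hsp90b1 holds a further ERSE in reverse orientation, which is not shown.
Hspa5: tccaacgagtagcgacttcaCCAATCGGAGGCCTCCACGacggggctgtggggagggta
Hsp90b1: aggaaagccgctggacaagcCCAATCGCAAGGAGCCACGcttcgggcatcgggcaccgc
Calr: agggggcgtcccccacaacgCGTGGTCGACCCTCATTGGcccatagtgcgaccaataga
Creld2: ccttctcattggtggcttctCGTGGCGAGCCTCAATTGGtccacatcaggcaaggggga
Dnajc3: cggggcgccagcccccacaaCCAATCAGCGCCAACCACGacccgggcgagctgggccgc
Pdia6: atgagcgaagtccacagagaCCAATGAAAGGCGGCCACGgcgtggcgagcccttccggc
Derl3: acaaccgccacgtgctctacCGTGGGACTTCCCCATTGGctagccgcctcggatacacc
Syvn1: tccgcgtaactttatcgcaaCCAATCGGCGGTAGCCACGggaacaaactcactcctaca
In build GRCm38.p6 these lie at chr2:34772005-34772063 (Hspa5, plus strand), chr10:86705618-86705676 (Hsp90b1, minus), chr8:84847055-84847113 (Calr, minus), chr15:88819500-88819558 (Creld2, plus), chr14:118937807-118937865 (Dnajc3, plus), chr12:17266471-17266529 (Pdia6, plus), chr10:75893222-75893280 (Derl3, plus) and chr19:6046512-6046570 (Syvn1, plus). All lie upstream of the start site, with the first base of the element between 44 bases before it in Syvn1 and 212 bases before it in Hsp90b1.

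The products of these 8 genes work at successive points of ER protein handling. Hspa5 encodes BiP, Hsp90b1 GRP94, Calr the lectin chaperone calreticulin, Creld2 an ER-resident EGF-domain protein, Dnajc3 a cochaperone of BiP, Pdia6 a disulfide isomerase, and Derl3 and Syvn1 a Derlin and the HRD1 ubiquitin ligase of ERAD. Apart from Derl3 their log2 fold changes ran from 1.38 (Hspa5) to 2.48 (Creld2). As for most rises, no call of these 8 genes held whichever of the 4 compared arrays was left out. Derl3 rose from 4.96 and 4.86 on control, below background, to 7.02 and 7.27 in ATF6β-cn, while it read 11.32 and 10.89 in ATF6α-cn, a direct difference of −3.95 (limma adjusted p = 2.72e-04). Of the 28 measured genes with an ERSE in the window, 8 rose and 0 fell, while 15 lay above both controls and 5 below. Canx, Ero1lb and Alg12, also ER genes with an ERSE, had log2 fold changes of 0.25, 0.45 and 0.67 that did not pass.

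The related ERSE-II, spelled ATTGG, 1 base of any kind and CCACG, stood in 2 of the 118 risen genes (1.69%), 0 of the 51 fallen genes and 0.0444% of all. Herpud1, an ERAD scaffold that rose by 1.56, carries it at chr8:94386357-94386407 of GRCm38.p6 on the plus strand, and is shown as its example.
Herpud1: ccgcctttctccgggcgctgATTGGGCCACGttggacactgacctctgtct
The ATF6 consensus TGACGTGG stood in 2 risen and 0 fallen genes against 0.714% of all, and the cAMP response element TGACGTCA, which differs from it in its last bases, in 3 and 1 against 2.03%. The E-box CACGTG, which can share bases with the CCACG end of the ERSE and ERSE-II, stood in 18 risen genes (15.3%), 4 fallen genes (7.84%) and 8.09% of all. The estrogen-related receptor site TCAAGGTCA stood in 1 risen gene and in Hcn2 among the fallen ones against 0.466% of all. The remaining 2 of the 8 motifs searched, an NRF1 site and a MEF2-like core, stood in 1 and 0 risen genes, 0 and 1 fallen genes and 1.07% and 0.181% of all. A match describes letters in these windows and not binding. The ERSE, ERSE-II and TGACGTGG were not found in these windows of the fallen genes. Their shares over all genes were 0.137%, 0.0444% and 0.714%, so that 0 among 51 genes is no result about the falls.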

How the data were processed

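RNA from flash-frozen ventricles was amplified from the 3′ end, labelled with biotin and hybridized to Affymetrix Clariom S mouse arrays, 1 per mouse. The authors deposited log2 signals, 1 per probe set and array, on a common scale. Affymetrix Expression Console is the only tool in the submitters' processing notes, and its version and settings were not given in the sources used here. Deposited sheets also hold the authors' fold changes and p-values against control, which were not used. Only the gene symbols of the ATF6β sheet were taken from them.

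Of 28846 probe sets, 6640 controls were left out and 22206 clusters were tested without a filter on signal. Of these, 836 match several genes and 3 have no symbol. They were tested but entered no list. For the 132 genes measured more than once, lists use the cluster of highest mean signal. One mean per group was fitted to all 6 arrays in R 4.3.3 with limma 3.58.1 (degrees of freedom: 3 residual, 5.63 prior). Adjusted p-values are Benjamini-Hochberg values over the 22206 clusters. The calculation was tested on simulated data. Precision is limited by the number of arrays. With 2 against 2, the smallest p of an exact permutation test is 0.333. Mice are biological replicates per the labels.

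Members and gene lists were chosen with earlier results of these data known, so lists are described by counts and medians and not tested. The genes named are Atf6b, Atf6, and the 20 largest rises and 25 largest falls among called clusters of 1 gene. For these rises and falls, both ATF6β-cn arrays had to lie on one side of both control arrays, as they did for every called cluster. From each of 37 lists and 13 marker lists, up to 3 called and up to 2 other members were named by size of change. Some genes that this rule names are not reported here. Any other gene was chosen with its values known, which holds for all falls beyond the 25 and all rises beyond the 20 that no list names. Where both arrays of a group lay under background, the fold is a bound counted from 5.03. Promoter windows are from RefSeq (GRCm38.p6).

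The alternatives changed the scaling (quantile, median centring), the clusters (dim ones removed), the fit (a replicate block, array weights, a robust variance trend, the 4 arrays alone, 1 array fewer) or the call (Student's t-test adjusted or not, unadjusted limma p, fold alone).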

Additional observations from a re-analysis of the deposited data

How the results depend on the processing

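By limma the 176 rises and 68 falls became 171 and 56 after quantile normalization, 179 and 83 with arrays centred on the same median, and 187 and 83 with array weights. Leaving out dim clusters (13441 kept), with the fit repeated on those kept, gave 220 rises and 128 falls (219 and 125 at least 2-fold). A variance trend with a robust fit gave 377 and 309 (296 and 167 at least 2-fold), and the 4 arrays alone gave 146 and 44. The fits without an ATF6α-cn array remove no compared array and gave the same counts as the 4 arrays alone. Over the fits that leave out 1 array each, the rises ran from 41 to 146 and the falls from 0 to 44, with the same range for changes of at least 2-fold. The 4 and 5 falls called without control replicate 1 and without control replicate 2 shared 4 and 3 clusters with the 68, and the 5 without ATF6β-cn replicate 1 shared 2. Student's t-test with adjustment gave 0 and 0 calls. Without adjustment it gave 1110 and 1156 (274 and 163 at least 2-fold), and limma without adjustment gave 1492 and 1585 (435 and 283). By fold alone there were 444 and 287. The cause of these differences was not tested. The log2 fold change of Atf6b ran from 6.08 to 6.17 over all alternatives and passed in each except the adjusted Student's t-test (6.12, adjusted p = 0.238). Besides Atf6b, 169 genes chosen by the naming rule were followed through these alternatives, and none of the called ones changed direction. For 1 array left out this was fixed in advance, since every called gene had both ATF6β-cn arrays on one side of both control arrays. The changes of test reuse the same log2 fold change and could not reverse it either. Among those not called, the log2 fold change of Scara3 (−0.63) ran from −1.28 to 0.014 with 1 array left out, the latter without ATF6β-cn replicate 1, and that of Slc4a1 (−0.27) from −0.92 to 0.38, the latter without control replicate 2. The cause was not tested. Other genes in the text were not followed.

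With the replicate number as a block there were 142 rises and 47 falls, 134 and 42 of them shared with the main calls. The labels do not say whether the replicate numbers pair the mice. Deviations from the group means of same-numbered control and ATF6β-cn arrays correlated over clusters at 0.0194. Those of ATF6α-cn and ATF6β-cn correlated at −0.0237. With a single pair of arrays per group these values cannot decide whether mice were paired.

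With 2 mice per group, a call that was missed does not show equal expression. Signals near 5.03 lie close to background, which read higher on the transgenic than on the control arrays in the negative control probe sets, and folds of dim genes are therefore uncertain in size.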
